A study of Mus musculus with 51 samples.

Results

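Gemin5 and the other genes of the survival motor neuron (SMN) complex are described here in mouse embryonic stem cells (mESCs). The set holds 9 of the 35591 genes in the count table, namely Smn1, Gemin2, Ddx20 (also called Gemin3), Gemin4, Gemin5, Gemin6, Gemin7, Gemin8 and Strap (also called Unrip). Gemin5 was chosen by its low counts in the maternal null lines of the same 6 libraries, and the other 8 genes were chosen from the known make-up of the complex around it. The contrast between the genotypes is therefore given as a description of these 9 genes, without a test of them.

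The SMN complex loads a ring of Sm proteins onto the small nuclear RNAs (snRNAs), which makes the core of the small nuclear ribonucleoproteins (snRNPs) that carry out pre-mRNA splicing. SMN, encoded by Smn1 in the mouse, is the founding subunit, and loss of the human gene causes spinal muscular atrophy. GEMIN5 is the WD-repeat subunit that recognises the snRNA, including its cap, and it also binds ribosomes and messenger RNAs outside the complex. SMCHD1 is a chromatin protein with roles in X inactivation, imprinting and Hox gene silencing, and the study asked what its supply from the oocyte does in the embryo.

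The study covered 51 RNA-seq libraries of male C57BL/6/Cast F1 mESCs. Of these, 6 were independently derived lines kept in 2i + LIF medium (2 kinase inhibitors and leukaemia inhibitory factor), and 45 were from a differentiation time course. By its labels the time course held both genotypes, from day 0 in medium with LIF to day 4 of differentiation. Per the paper, it used technical replicates of 2 lines per genotype, differentiated toward neuromesodermal progenitors. FGF was given from day 0, a Wnt activator from day 2 and GDF11 from day 3. The control lines are Smchd1[fl/+] (wild-type, Smchd1wt, 3 lines) and carry an intact floxed maternal allele. The maternal null lines are Smchd1[del/+] (maternally deleted, Smchd1matΔ, 3 lines), and their allele was deleted in the growing oocyte by Zp3-Cre, a Cre driven by an oocyte promoter. Both genotypes have a paternal Cast copy of Smchd1. The Smchd1matΔ lines thus lacked oocyte SMCHD1 and also had a single intact copy in their own genome, and in this comparison these conditions cannot be told apart.

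The 6 lines in 2i + LIF had between 27526359 and 126716460 counted reads, and no pair of them held identical values. Counts were scaled with edgeR's TMM method and are given as CPM, the counts per 1000000 counts of the scaled library. Smchd1 itself was counted at 107, 124 and 119 CPM in the Smchd1wt lines 1, 2 and 3 and at 63.7, 72.0 and 90.7 CPM in the Smchd1matΔ lines 1, 2 and 3. It was lower in every line labelled maternal null, with a fitted log2 fold change of -0.63 (SE 0.14), although this count covers the whole gene and cannot show the deleted exon alone. Smchd1matΔ line 3 stood apart from the other Smchd1matΔ lines in several of the genes described. Over all tested genes, departures from the group mean in Smchd1wt line 3 correlated at 0.383 with those in Smchd1matΔ line 3. With those in Smchd1matΔ lines 1 and 2 they correlated at -0.218 and -0.422. Part of the pattern of line 3 was thus shared by both genotypes. All 10 genes of a pluripotency list, which holds general factors such as Pou5f1 and Sox2 beside naive ones, were detected. They summed to 3841 to 4083 CPM in Smchd1wt and 4014 to 4199 CPM in Smchd1matΔ.

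Gemin5 lies on the minus strand of chromosome 11 (GRCm38, 58120002 to 58168539) and spans 48.5 kb with up to 28 exons in its coding transcripts. The region around its start, from 250 bases before to 50 bases after, is shown because Gemin5 is the gene whose counts differed, and that of Ddx20 because it was the steadiest member between the lines. Both are RefSeq promoter windows of GRCm38.p6 on the minus strand, chr11:58168490-58168789 for Gemin5 and chr3:105687522-105687821 for Ddx20, written 5′ to 3′ with each GC box (GGGCGG, either strand) in capitals.

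Gemin5: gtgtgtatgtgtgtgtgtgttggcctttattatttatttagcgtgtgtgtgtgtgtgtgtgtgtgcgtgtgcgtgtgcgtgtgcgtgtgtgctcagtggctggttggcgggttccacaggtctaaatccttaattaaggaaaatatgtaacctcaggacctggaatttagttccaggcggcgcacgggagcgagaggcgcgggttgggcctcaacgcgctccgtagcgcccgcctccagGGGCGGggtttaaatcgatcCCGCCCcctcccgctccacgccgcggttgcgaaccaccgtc

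Ddx20: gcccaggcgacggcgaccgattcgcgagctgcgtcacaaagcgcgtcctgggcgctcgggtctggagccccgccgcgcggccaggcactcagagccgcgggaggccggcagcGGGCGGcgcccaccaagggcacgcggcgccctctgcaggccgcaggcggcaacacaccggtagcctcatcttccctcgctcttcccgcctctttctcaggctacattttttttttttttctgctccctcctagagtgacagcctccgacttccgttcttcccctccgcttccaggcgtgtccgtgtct

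The Gemin5 window opens with a run of alternating g and t and holds 2 GC boxes and 26 CpGs in 300 bases. The Ddx20 window holds 1 GC box and 34 CpGs. All 9 genes matched a RefSeq promoter, and a GC box stood in 6 of the 9 against 35.6% of all 32817 promoters. TGACG on either strand, part of the cAMP response element, stood in 7 of the 9 against 20.8% of all promoters, and Gemin5 was without it, as was Gemin7. CCGGAAG, an ETS core, stood in the windows of Gemin8, Smn1 and Strap (3 of 9, against 8.86%). No window of the 9 held TATAAA (13.6% of all promoters) or CACGTG (7.15%), and CCAAT stood in 2 of them (37.4%). None of these motifs is contained in another, and a match is a description of the sequence only.

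Gemin5 was lower in the maternal null lines. It was counted at 132, 131 and 134 CPM in the Smchd1wt lines and at 80.4, 79.0 and 97.3 CPM in the Smchd1matΔ lines. The groups did not overlap, and the highest Smchd1matΔ line reached 0.740 times the lowest Smchd1wt line. The means were 132 ± 1.09 CPM (SD, n = 3) and 85.6 ± 10.1 CPM (SD, n = 3), which is 35.3% lower, and the fitted log2 fold change was -0.63 (SE 0.11). In bulk RNA, fewer cells that express a gene and less RNA per cell cannot be told apart.

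The Smchd1wt lines lay close together for Gemin5. Their coefficient of variation was 0.823%, whereas the counting error of a single line was 0.764% to 1.65%, since Gemin5 had 3665, 17110 and 6363 reads in them. The Smchd1matΔ lines had 9712, 8568 and 3394 reads and a coefficient of variation of 11.9%. Line 3 lay apart from the other Smchd1matΔ lines, and without it the fitted log2 fold change was -0.73. Line 3 also had the highest Smchd1 level of the Smchd1matΔ lines, but it stood apart in many other genes as well. The other Smchd1matΔ lines had 63.7 and 72.0 CPM of Smchd1 with 80.4 and 79.0 CPM of Gemin5, in that order. A link between the levels of these genes was not tested.

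The fit ran over 17696 genes, all 9 members among them. By edgeR's quasi-likelihood test with Benjamini-Hochberg adjustment, 0 genes (0%) had an adjusted p under 0.05 and 397 genes (2.24%) had an unadjusted p under 0.05. DESeq2 also called 0 genes, with 460 at an unadjusted p under 0.05, and edgeR's exact test called 2 (0.0113%). Every Smchd1matΔ line lay below every Smchd1wt line for 828 genes (4.68%) and above for 831 genes (4.7%). Of the members, Gemin5 and Ddx20 were among the 828 and none was among the 831. A fitted change as low as that of Gemin5 or lower was seen in 530 genes (3%). Of the 4531 genes with a mean of at least 50 CPM, 3 genes (0.0662%) combined such a change with no overlap between the groups. They were Gemin5, Smchd1 and the nuclear noncoding RNA Malat1, whose Smchd1wt lines ranged widely (189 ± 80.7 CPM, SD, n = 3, against 97.2 ± 9.02 CPM). Since Gemin5 was chosen from these same values, its place in these counts is not independent evidence.

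**Figure D1:**
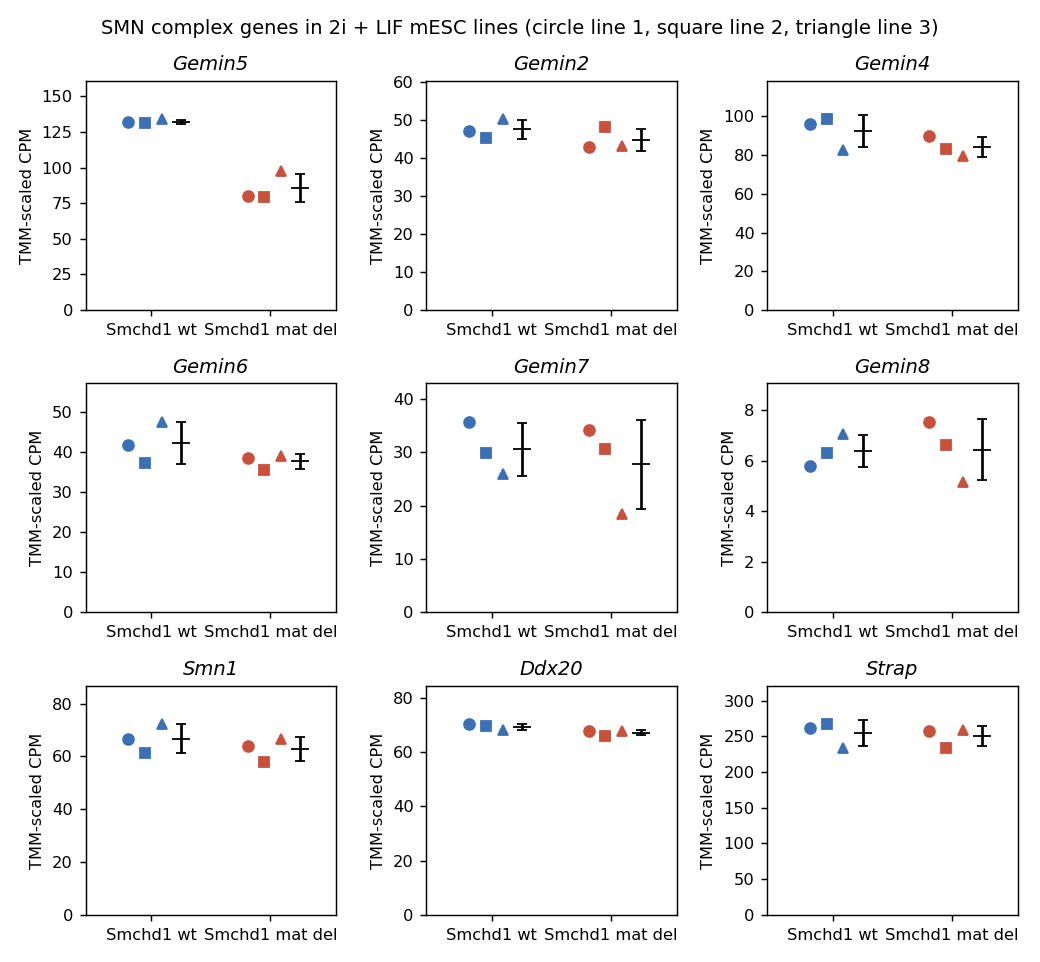
TMM-scaled CPM of the 9 SMN complex genes (y axes, each from 0) in the 3 Smchd1wt and 3 Smchd1matΔ lines (x axes), 1 point per line with the mean and SD of each group as bars. Gemin5 sits at 131 to 134 CPM in Smchd1wt and 79.0 to 97.3 CPM in Smchd1matΔ, while the groups of the other genes overlap except for Ddx20, where they lie a few percent apart.

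The genes of the complex are spread over the genome, and Gemin4 alone shares a chromosome with Gemin5. GRCm38 places Smn1 at 100124852 to 100137690 on chromosome 13 (plus strand), Gemin2 at 59013393 to 59028470 on chromosome 12 (plus strand), Ddx20 at 105678270 to 105687574 on chromosome 3 (minus strand) and Gemin4 at 76210571 to 76217664 on chromosome 11 (minus strand). It places Gemin6 at 80224441 to 80228497 on chromosome 17 (plus strand), Gemin7 at 19564946 to 19577595 on chromosome 7 (minus strand), Gemin8 at 166170454 to 166190512 on chromosome X (plus strand) and Strap at 137735078 to 137751932 on chromosome 6 (plus strand). All 9 are annotated as protein coding.

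Smn1 and Gemin2, at the core of the complex, overlapped between the genotypes. Smn1 was counted at 66.7, 61.3 and 72.2 CPM in Smchd1wt and 63.9, 57.7 and 66.5 CPM in Smchd1matΔ, and its groups overlapped (log2 fold change -0.09, SE 0.11). Gemin2, which holds the Sm proteins in place on SMN, had 47.1, 45.4 and 50.3 CPM against 42.9, 48.2 and 43.2 CPM (-0.09, SE 0.10). Both genes thus lay within the spread of their lines.

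Ddx20 encodes a DEAD-box helicase and was the least variable member, with 70.3, 69.6 and 68.1 CPM in Smchd1wt and 67.8, 66.1 and 67.7 CPM in Smchd1matΔ. Its groups did not overlap, but they lay 3.04% apart in their means and the fitted log2 fold change was -0.04 (SE 0.09). Gemin4, its binding partner, had 95.9, 98.5 and 82.8 CPM against 89.9, 83.1 and 79.7 CPM (-0.13, SE 0.11), and the groups overlapped. The span of Gemin4 overlaps Glod4, Fam57a and Dbil5 in the annotation, so some of its reads may be shared with them.

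Gemin6, Gemin7 and Gemin8 form the peripheral module of the complex. Gemin6, which with Gemin7 forms a pair of Sm-like folds, had 41.7, 37.2 and 47.5 CPM in Smchd1wt and 38.4, 35.5 and 38.9 CPM in Smchd1matΔ (-0.17, SE 0.12), and a pseudogene of it, Gemin6-ps, is annotated with which reads could be shared. Gemin7 had 35.7, 29.9 and 25.9 CPM against 34.2, 30.5 and 18.4 CPM (-0.13, SE 0.23), and Zfp296 overlaps its span. Its direction rested on Smchd1matΔ line 3, since without that line the log2 fold change was 0.09. Gemin8, on the X chromosome, which bridges this pair to SMN, was the lowest member at 5.80, 6.32 and 7.07 CPM against 7.55, 6.61 and 5.16 CPM (0.01, SE 0.19), and its sign changed with the line left out, from -0.11 to 0.15. Each of the 3 genes overlapped between the genotypes.

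Strap, a WD-repeat protein that joins the complex through Gemin7, was the highest member with 261, 267 and 233 CPM in Smchd1wt and 257, 233 and 259 CPM in Smchd1matΔ. Its groups overlapped (-0.03, SE 0.10), and its sign also changed with the line left out, from -0.08 to 0.03. Of the 8 members other than Gemin5, 7 had a fitted change below 0 and 1 above, with a median of -0.09 where the median over all tested genes was -0.01. Their fitted changes ran from -0.17 for Gemin6 to 0.01 for Gemin8. With each line left out in turn, Gemin6 ran from -0.25 to -0.07, Gemin4 from -0.21 to -0.08, Smn1 from -0.14 to -0.02, Gemin2 from -0.13 to -0.05, Ddx20 from -0.06 to -0.02 and Gemin7 from -0.31 to 0.09. Gemin5 ran from -0.73 to -0.56.

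The same counts of Gemin5 can be set against those of its partners within a library, which restates the difference and adds no separate evidence. Its log2 CPM lay 1.36, 1.41 and 1.41 above the mean log2 CPM of the other 8 members in Smchd1wt, and 0.67, 0.74 and 1.13 above it in Smchd1matΔ. The distance was 0.55 smaller in the Smchd1matΔ mean, on the log2 scale. Summed over the 9 genes, the complex took 741 ± 18.2 CPM in Smchd1wt and 666 ± 22.5 CPM in Smchd1matΔ (SD, n = 3). Without Gemin5 the sums were 609 ± 19.2 and 580 ± 20.2 CPM, and these ranges, 587 to 624 and 561 to 601 CPM, overlapped. The share of Gemin5 in the sum was 17.5%, 17.6% and 18.5% in the Smchd1wt lines and 11.8%, 12.3% and 14.4% in the Smchd1matΔ lines.

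Levels of different genes were compared per length, as CPM per kb of annotated exon (GENCODE M21). In Smchd1wt, Strap was the highest at 82.2 ± 5.84 (SD, n = 3) and stood clear of Gemin6 at 29.5 ± 3.62. Gemin6, Smn1 (25.7 ± 2.09) and Gemin4 (24.7 ± 2.26) overlapped each with its neighbour in the order. Gemin5 (20.0 ± 0.165), Gemin2 (19.7 ± 1.03), Gemin7 (17.1 ± 2.76) and Ddx20 (16.7 ± 0.263) formed the next run of overlapping neighbours, and Gemin8 was far below at 2.57 ± 0.258. In Smchd1matΔ the mean of Gemin5 was 12.9 ± 1.53 and its rank moved from 5 to 8, below Ddx20 (16.2 ± 0.231). Gemin7 (15.5 ± 4.64) overlapped Gemin5 there, and in line 3 it lay below Gemin5, at 10.3 against 14.7. The ranks of the 4 genes above it and of Gemin8 were the same in both genotypes.

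**Figure D2:**
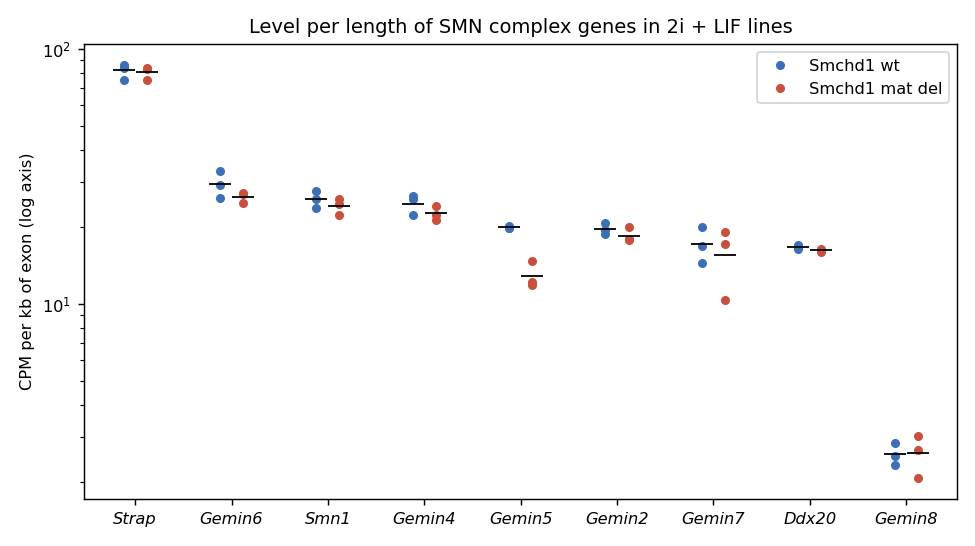
CPM per kb of exon (y axis, log scale) of the 9 genes (x axis, in the order of the Smchd1wt means) in each 2i + LIF line, with horizontal bars at the group means. Gemin5 lies at 20.0 in Smchd1wt and at 12.9 in Smchd1matΔ, next to means of 16.7 and 16.2 for Ddx20.

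The genes that act before and after the complex were taken as 7 lists with 72 genes, all of which were tested. None had an adjusted p under 0.05 by edgeR's quasi-likelihood test or DESeq2, and 1 (Snrpa) had an unadjusted p under 0.05, where 2.24% of all tested genes did. Fitted changes were below 0 in 38 genes and above 0 in 34, with a median of -0.01, and they ran from -0.34 for Coprs to 0.31 for Snapc3. Both ends rested on Smchd1matΔ line 3, and without it Coprs was at -0.09 and Snapc3 at -0.05. The 72 genes then ran from -0.45 for Snapc5 to 0.20 for Snrpn. Smchd1wt line 3 was still in that fit, and with that line left out instead Snapc5 was at 0.01. No gene of the 7 lists reached the fitted change of Gemin5, where 3% of all tested genes did. Gemin5 was chosen for its low counts in these lines, so this is no evidence of a contrast with the lists.

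The Sm proteins, which are the cargo of the complex, had a median log2 fold change of -0.12 over 8 genes, 6 below and 2 above 0. The lowest was Snrpe (-0.31, SE 0.19) at 176, 167 and 177 CPM against 158, 165 and 95.1 CPM, and the highest was Snrpd3 (0.19, SE 0.22) at 170, 169 and 196 CPM against 162, 164 and 285 CPM. Both extremes came from Smchd1matΔ line 3, and without it Snrpe was at -0.10, Snrpd3 at -0.13 and the median of the list at 0.03. The methylosome, which methylates Sm proteins before the complex takes them up, had a median of -0.09 over 6 genes, from Coprs (-0.34, SE 0.24), a partner of PRMT5, to Prmt5 (0.11, SE 0.15), the methyltransferase, which was at -0.05 without that line.

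The genes of snRNA cap binding, cap modification and nuclear transport had a median of 0.02 over 8 genes, which was -0.06 without Smchd1matΔ line 3. They ran from Ncbp2 (-0.07, SE 0.12), a subunit of the nuclear cap-binding complex, to Tgs1 (0.08, SE 0.10), which hypermethylates the snRNA cap. The U snRNP proteins, which join the finished core, had a median of 0.07 over 18 genes, 4 below and 14 above 0. Snrpa, a U1 protein, was counted at 151, 147 and 132 CPM in Smchd1wt and at 169, 158 and 181 CPM in Smchd1matΔ (0.24, SE 0.10), without overlap. The lowest of the list was Snrpb2 (-0.07, SE 0.18) and the highest was Prpf8 (0.26, SE 0.21), a core component of the U5 snRNP, whose 989 CPM in Smchd1matΔ line 3 stood far from the 566 to 666 CPM of Smchd1wt and the 589 and 602 CPM of the other Smchd1matΔ lines. Without Smchd1matΔ line 3 Snrpb2 was at -0.28, Prpf8 at -0.02 and the median of this list at -0.01. With Smchd1wt line 3 left out instead, Snrpb2 was at 0.04 and Prpf8 at 0.34. Besides Snrpa, Sf3a2 (0.11, SE 0.09) was higher in every Smchd1matΔ line, and of the other lists Snrpe and Lsm1 were lower in every one. Over all tested genes, 4.7% were higher and 4.68% lower in this way.

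The LSm proteins, relatives of the Sm proteins, had a median of -0.14 over 10 genes, 9 of them below 0, from Lsm1 (-0.25, SE 0.14) to Lsm4 (0.08, SE 0.11). Without Smchd1wt line 3 that median was -0.05, and without Smchd1matΔ line 3 Lsm1 was at -0.13 and Lsm4 at 0.14. The genes for snRNA transcription and 3′ end processing had a median of 0.00 over 17 genes, from Snapc5 (-0.24, SE 0.24) to Snapc3 (0.31, SE 0.24), subunits of the snRNA-activating complex. Snapc5 was at 0.01 without Smchd1wt line 3. The cap-binding and translation genes, with which GEMIN5 has been linked outside the complex, had a median of -0.06 over 5 genes. They ran from Eif4a1 (-0.14, SE 0.11), an RNA helicase of translation initiation, to Eif4g1 (0.13, SE 0.12), its scaffold.

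**Figure D3:**
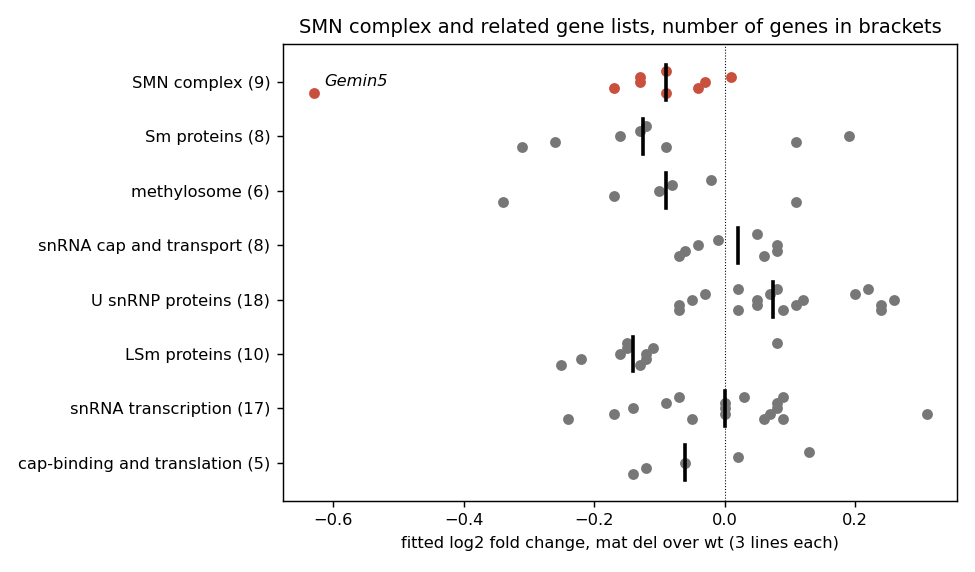
Fitted log2 fold change of Smchd1matΔ over Smchd1wt (x axis) for each gene of the SMN complex and of 7 related lists (y axis, number of genes in brackets), with a vertical bar at each median. Gemin5 lies at -0.63, and the genes of the other lists lie between -0.34 and 0.31.

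The genes around Gemin5 were looked at to see whether the lower count extended along the chromosome. Of 36 counted genes within 500 kb, 12 passed the expression filter, 10 with a fitted change below 0 and 2 above, with a median of -0.14. Over all 17696 tested genes, 9149 were below 0 and the median was -0.01. None of the 12 passed an adjusted p of 0.05 by edgeR's quasi-likelihood test. None had an unadjusted p under 0.05 by that test either, where 2.24% of all tested genes did. The groups did not overlap in 2 of the 12. Over all tested genes, 4.7% were higher and 4.68% lower in every Smchd1matΔ line. Without Smchd1matΔ line 3 the median was -0.02.

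The nearest genes on each side had smaller fitted changes than Gemin5. Cnot8, a deadenylase gene 1.41 kb from the 3′ end of Gemin5, was counted at 89.8, 87.5 and 81.9 CPM in Smchd1wt and 81.7, 83.6 and 69.2 CPM in Smchd1matΔ (-0.14, SE 0.11). Mrpl22, a mitochondrial ribosomal protein gene that starts 3.12 kb upstream of Gemin5 in the opposite orientation, had 30.1, 27.6 and 38.9 CPM against 26.4, 25.5 and 37.9 CPM (-0.11, SE 0.20). The groups of both genes overlapped.

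Farther away, Larp1, which encodes an RNA-binding regulator of translation, lay 58.0 kb beyond the 3′ end and was higher in every Smchd1matΔ line. It had 231, 228 and 230 CPM in Smchd1wt against 246, 241 and 308 CPM in Smchd1matΔ (0.21, SE 0.12), the opposite direction to Gemin5. The genes with the lowest fitted changes in the window were Igtp (-0.68, SE 0.36) and Irgm2 (-0.43, SE 0.31), interferon-inducible GTPases at 1.64 and 2.20 CPM in Smchd1wt, and 2010001A14Rik (-0.42, SE 0.21) at 2.28 CPM. Only the last of these did not overlap between the groups. Zfp692 (-0.02, SE 0.39), Zfp672 (-0.11, SE 0.27), Sh3bp5l (-0.13, SE 0.20), Sap30l (-0.23, SE 0.36) and Galnt10 (-0.17, SE 0.17) overlapped, as did Hand1 (0.69, SE 0.67), which was nearly absent at 0.126 CPM. Gm12246, annotated on the opposite strand within Gemin5, reached at most 0.0999 CPM in any line.

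**Figure D4:**
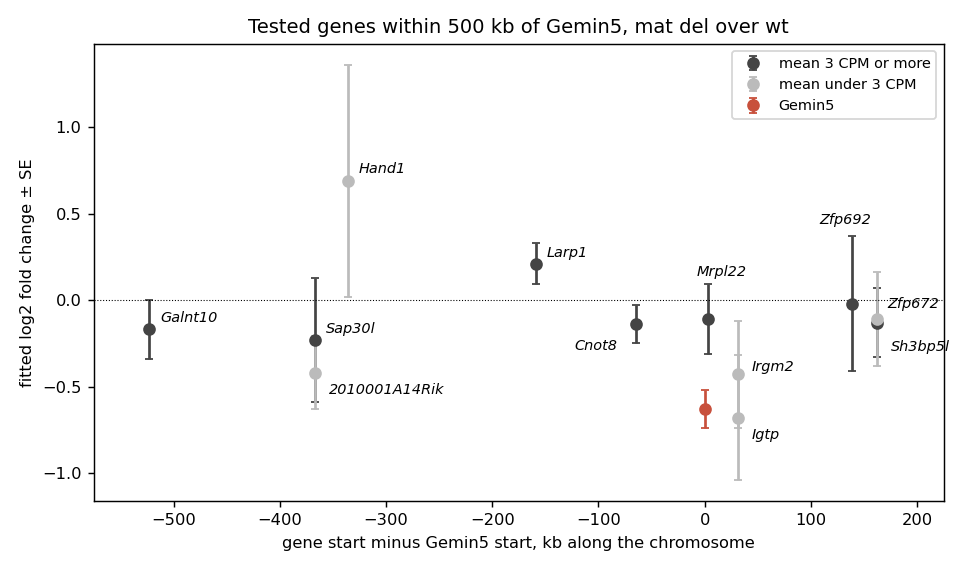
Fitted log2 fold change with its SE (y axis) of Gemin5 and the 12 tested genes within 500 kb, plotted by the distance of the gene start from that of Gemin5 (x axis, kb). Cnot8 and Mrpl22, the nearest genes, lie at -0.14 and -0.11 while Gemin5 lies at -0.63, and pale points are genes with a mean under 3 CPM.

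The genes whose pattern over the 6 lines was most like that of Gemin5 were ranked by Pearson's r of log2 (CPM + 1), among 10987 genes with a mean of at least 5 CPM. The first 5 were Trmt11 (r = 0.974), Rida (0.971), Ngly1 (0.966), Smchd1 (0.964) and Rint1 (0.963), and all 5 were lower in every Smchd1matΔ line. The points share the split between genotypes, so r mostly ranks genes by how clearly they separate the groups, and no p is given. Apart from Smchd1, their fitted changes were smaller than that of Gemin5, from -0.11 for Rint1 (SE 0.11) to -0.29 for Rida (SE 0.12). Trmt11, on chromosome 10, had 26.1, 25.4 and 26.1 CPM against 20.3, 21.6 and 23.0 CPM. Among the members the most alike was Ddx20 at r = 0.80, ranked 136, and Gemin8 had the lowest r at -0.224.

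The pluripotency list had a median log2 fold change of 0.05 and no gene past an adjusted p of 0.05 by edgeR's quasi-likelihood test or DESeq2, with 2 at an unadjusted p under 0.05. Of its 10 genes, 3 were higher in every Smchd1matΔ line, where 4.7% of all tested genes were, namely Klf4 (117 ± 9.21 against 145 ± 0.799 CPM, SD, n = 3), Tbx3 (91.7 ± 5.16 against 109 ± 13.1 CPM) and Prdm14 (63.6 ± 11.1 against 81.3 ± 6.41 CPM). The other 7 overlapped, and Pou5f1 (-0.18, SE 0.14), Zfp42 (-0.19, SE 0.17) and Sox2 (-0.02, SE 0.14) had fitted changes below 0. Of the 4 primed markers, Dnmt3b was lower in every such line (54.7 ± 21.3 against 33.7 ± 4.66 CPM), and the other 3 overlapped, among them Otx2 (0.09, SE 0.15). The mesoderm gene T (7.27 ± 0.975 against 8.83 ± 0.0754 CPM) and the neural gene Sox1 (1.89 ± 0.360 against 2.64 ± 0.228 CPM) were also higher in every Smchd1matΔ line. The other tested genes of these lists overlapped. They were Eomes (0.07, SE 0.21) and Mixl1 (0.43, SE 0.65) of mesoderm, and Pax6 (0.37, SE 0.29) and Neurod1 (-1.08, SE 0.77) of the neural list. The sum of the primed list was 79.6 to 108 CPM in Smchd1wt and 66.1 to 75.5 CPM in Smchd1matΔ. The primitive endoderm, mesoderm and neural lists summed to at most 9.10, 34.3 and 5.70 CPM in any line, and the trophoblast and fibroblast lists to at most 127 and 165 CPM, with overlapping groups. Nearly all of the trophoblast sum was Tfap2c (95.0 ± 27.5 against 113 ± 11.4 CPM), and nearly all of the fibroblast sum was Vim (130 ± 28.6 against 103 ± 32.6 CPM). The part of these differences in the level of Gemin5 was not tested.

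In the time course the 45 count columns could not be used by group. Each column was set beside the log2 RPKM values that the authors deposited for 72 Hox genes and differentiation factors, and the best match carried the same name in 7 of the 45. The columns are therefore described together, without genotype or day. The names of the 6 lines in 2i + LIF could not be checked in this way. The columns hold single-end reads at totals of 281284 to 103267407 counts, and in 1 of them (8254575 counts) 6 of the 9 members were at 0, so the ranges below are over the other 44, scaled by library total.

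Strap was the highest member per length in all 44 columns, and Gemin8 the lowest in 42 with Gemin4 the lowest in the other two. Gemin5 ran from 55.1 to 293 CPM with a median of 167 CPM, and 31 of the 44 columns were above its highest 2i + LIF line while 2 were below its lowest. Ddx20 was above its 2i + LIF range in 41 columns, with a median of 112 CPM against 68.2 CPM over the 2i + LIF lines by the same scaling. Smn1 (53.3 to 131 CPM, median 82.8) and Strap (193 to 423 CPM, median 335) were above theirs in 34 and 37 columns. Stage of differentiation, read type, medium and depth differ between these sets, so their part cannot be told apart. Many of the columns are repeats of the same lines, so they are not independent.

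By the highest over the lowest column, Gemin4 and Gemin6 varied most of the 8 members that were above 0 in every column. Gemin8, at 0 in its lowest column, has no such ratio. Gemin4 ran from 8.03 to 237 CPM, 29.6-fold, with a median of 114 CPM and a middle range of 69.2 to 158 CPM, and 14 columns were below its 2i + LIF range while 24 were above. Gemin6 ran from 7.81 to 81.1 CPM, 10.4-fold, with a median of 40.8 CPM. Gemin2 (35.8 to 75.5 CPM, median 52.3) and Strap were the steadiest, at 2.11-fold and 2.19-fold, and Gemin5 lay between at 5.31-fold. Gemin7 ran from 11.9 to 59.1 CPM with a median of 31.5 CPM. Gemin8 ran from 0 to 19.6 CPM with a median of 7.66 CPM. Its 0 was in the column with the fewest counts (281284), so depth limits the low end of its range.

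**Figure D5:**
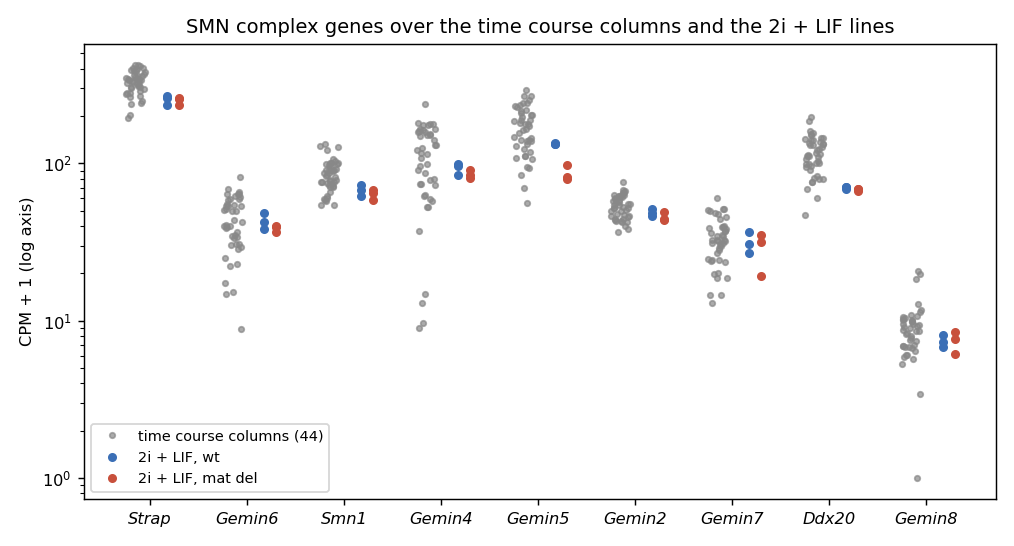
CPM + 1 (y axis, log scale) of the 9 genes (x axis) in 44 time course columns shown without group (grey) and in the 2i + LIF lines (blue Smchd1wt, red Smchd1matΔ). Grey points are scaled by library total and the points of the 2i + LIF lines by TMM. Gemin8, Gemin4 and Gemin6 have points far below the rest of their columns, down to 0, 8.03 and 7.81 CPM, and most grey points of Ddx20 lie above its 2i + LIF lines. The 0 of Gemin8 is in the column with the fewest counts.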

How the data were processed

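RNA-seq of mESCs was analysed from the tables that the authors deposited. Per the paper's methods and the submitters' processing notes, reads were trimmed (Trim Galore 0.4.4), mapped with HISAT2 2.0.5 to GRCm38.p6 and quantified in SeqMonk. The authors deposited raw read counts per gene for 51 libraries, and log2 RPKM values for Hox genes and factors, used here to check column names. Libraries were made with stranded or non-stranded poly-A kits, and which was used for each is not given in the sources used here, so antisense reads cannot be told apart.

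Counts of the 6 lines in 2i + LIF were scaled with TMM, filtered with edgeR's default filter and fitted with edgeR 4.0.16 (quasi-likelihood test, Benjamini-Hochberg adjustment at 0.05, R 4.3.3) over all genes. Alternatives were RLE scaling, library totals, DESeq2 1.42.0, edgeR's exact test, other count filters, each line left out, and the line number as a replicate block. Residuals of same-numbered lines correlated at 0.165, 0.334 and 0.383, and same-numbered lines were taken as pairs in the block. The labels give no shared origin, and Smchd1wt line 1 correlated more with Smchd1matΔ line 2 (0.239). Between the genotypes, lines 1 and 2 correlated at 0.123 to 0.334, and line 3 correlated with lines 1 and 2 at -0.422 to -0.218. These values separate line 3 from lines 1 and 2 and do not show 3 distinct pairs. The block changed no call. With 3 lines per genotype, p-values rest on the spread between these lines, which the fit moderates with that of all tested genes. The SE comes from the same fit, so it can differ from the spread of a gene's own lines. The fit was also run on simulated counts with 200 changed genes. Their changes were larger than that of Gemin5 and the lines were drawn independently, so the run does not bear on a change of its size. Exon lengths came from GENCODE M21, promoters from RefSeq.

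The members and gene lists were chosen with earlier results of these data known. Named genes were the members, Smchd1, the lowest and highest gene of each list and any past the threshold, the 12 tested neighbours and the 5 genes most like Gemin5. Snrpa, Sf3a2, Snrpn, Malat1, Magel2 and the markers named were chosen after their values were seen.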

Additional observations from a re-analysis of the deposited data

How the results depend on the processing

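The log2 fold change of Gemin5 was -0.65 to -0.62 over the alternatives of scaling, filter and test, among them -0.64 with the replicate block, and -0.73 to -0.56 with each line left out. The number of genes past the threshold was 0 in every alternative but edgeR's exact test, which called 2 genes, Magel2 and Gemin5. Since Gemin5 was chosen on these libraries, its call there is no evidence, and the cause of the difference between the tests was not tested. Unadjusted p-values under 0.05 numbered 397 without and 730 with the replicate block, which left every count of calls at 0. With each line left out, the list medians ran from -0.06 to 0.05 for cap and transport and from -0.18 to -0.05 for LSm proteins. The Sm median ran from -0.24 to 0.03, that of the U snRNP proteins from -0.01 to 0.14, and that of the neighbourhood from -0.25 to -0.02. All other alternatives moved these medians by less than the spread between lines. Depth limits Gemin8 most, with 161 reads in the shallowest line and a counting error of 7.88%.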
